A study of Homo sapiens with 4 samples.

Results

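The glycolysis and hypoxia-linked glucose genes were examined in H1 cells, a human embryonic stem cell line, at day 2 of early hematopoietic differentiation. The group held 33 genes given by symbol, and each was found once among the 58365 gene rows of the table. It took in 2 glucose transporters, 17 enzymes of glycolysis and lactate formation, 3 bifunctional enzymes that set fructose-2,6-bisphosphate, 2 pyruvate dehydrogenase kinases, 2 carriers of lactate, 3 genes of oxygen sensing and 4 further targets of the hypoxia-inducible factors (HIF). Levels were given per gene length in FPKM (fragments per kilobase of gene, scaled to the library's fragments). The table's header names no unit, and FPKM was taken from the description of the table and from its values.

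All cells were kept for 2 days in a custom mTeSR1 medium with 40 ng/ml activin A and 50 ng/ml BMP4, which direct pluripotent cells towards mesoderm. The 2 control libraries received DMSO, the solvent, and the 2 treated libraries received IWP2, a small molecule that blocks Porcupine and with it the secretion of Wnt ligands. The doses of activin A and BMP4 are those of the labels, and the methods of the study give them the other way round for its differentiation protocol. The dose of IWP2 is not given in the labels, and all libraries came from 1 cell line. The comparison addressed which genes depend on Wnt signalling while pluripotent cells leave for mesoderm.

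Glycolysis splits glucose into pyruvate in the cytosol. The upper steps trap glucose and spend ATP, the lower steps return ATP and NADH, and lactate dehydrogenase renews NAD+ by turning pyruvate into lactate. When oxygen is low, prolyl hydroxylases of the EGLN family no longer mark HIF1A for destruction, and HIF raises the transcription of glucose transporters, glycolytic enzymes and lactate carriers. Pluripotent stem cells are known for a high rate of glycolysis, which changes as they leave pluripotency.

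The libraries summed to between 616418 and 653850 FPKM, with 24205 to 24512 genes above 0. Absolute depth is not known, and the steps between low values gave relative depths between 88.8% and 110.1% of the DMSO 1 library. Log2 values correlated across genes at 0.972 between the DMSO libraries and 0.980 between the IWP2 libraries, and at most at 0.938 across the groups. Known Wnt target genes fell in the treated libraries, 5 of 5, among them SP5, at 53.2 and 47.0 FPKM with DMSO and at 0.379 and 0.363 FPKM with IWP2. The cell state differed as well, since 7 of 7 mesoderm and primitive streak markers fell (APLNR, log2 fold change -6.91) and 3 of 5 pluripotency markers rose (SOX2, 4.96). TBXT is counted both as a Wnt target and as a mesoderm marker. Endoderm markers fell in 3 of 4 cases and amnion and trophoblast markers rose in 3 of the 4 tested. The summed mesoderm markers ranged from 918 to 1150.1 FPKM with DMSO and from 52.6 to 57.0 FPKM with IWP2, and the summed pluripotency markers from 909.7 to 1114 and from 2307 to 2308 FPKM. GATA1, which defines red cell precursors, was at 0 in all 4 libraries, and DCN and SOX1 were near 0. Of 4 neural markers only OTX2, and of 6 endothelial and blood markers only RUNX1, were expressed enough to test, and both fell. The other 3 and 5 were too low to test, so these falls do not show a loss of neural or blood cells. Of 3 tested stromal markers THY1 rose and LUM fell. The part of these shifts in cell state in the differences given here was not tested, and in bulk RNA fewer cells of a type cannot be told apart from less RNA per cell.

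When Wnt secretion was blocked, 1 hypoxia target rose and 5 genes of glucose use and oxygen response fell, while most of the glucose genes did not pass the test. Of the 33 genes, 32 averaged at least 1 FPKM and were tested, and 6 passed the threshold of an adjusted p of 0.05 (limma, two-sided, adjusted over all 14022 genes tested). Over all genes the test called 15.2%, with 6.75% higher and 8.44% lower with IWP2. The 18.8% called of the 32 stood close to this background. The split into 1 higher and 5 lower leaned more to the lower side than that of all genes, on few genes. Of the 2129 calls over all genes 55.6% were lower, and with upper-quartile scaling 44.6% of 2215, where 9 of the 32 members passed, 4 higher and 5 lower. The median log2 fold change of the 32 genes was -0.01, beside -0.02 over all genes. The 2 groups did not overlap in 21 of the 32 genes, against 59.8% of all genes. An unadjusted p under 0.05 (limma) was found in 12 of the 32, beside 4245 of all 14022 genes. CA9, a carbonic anhydrase used as a marker of hypoxia, was the gene left out, at 0.291 and 0.468 FPKM with DMSO and at 0.181 and 0.136 FPKM with IWP2. Every tested member stood at 2.13 FPKM or more in all 4 libraries.

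**Figure D1:**
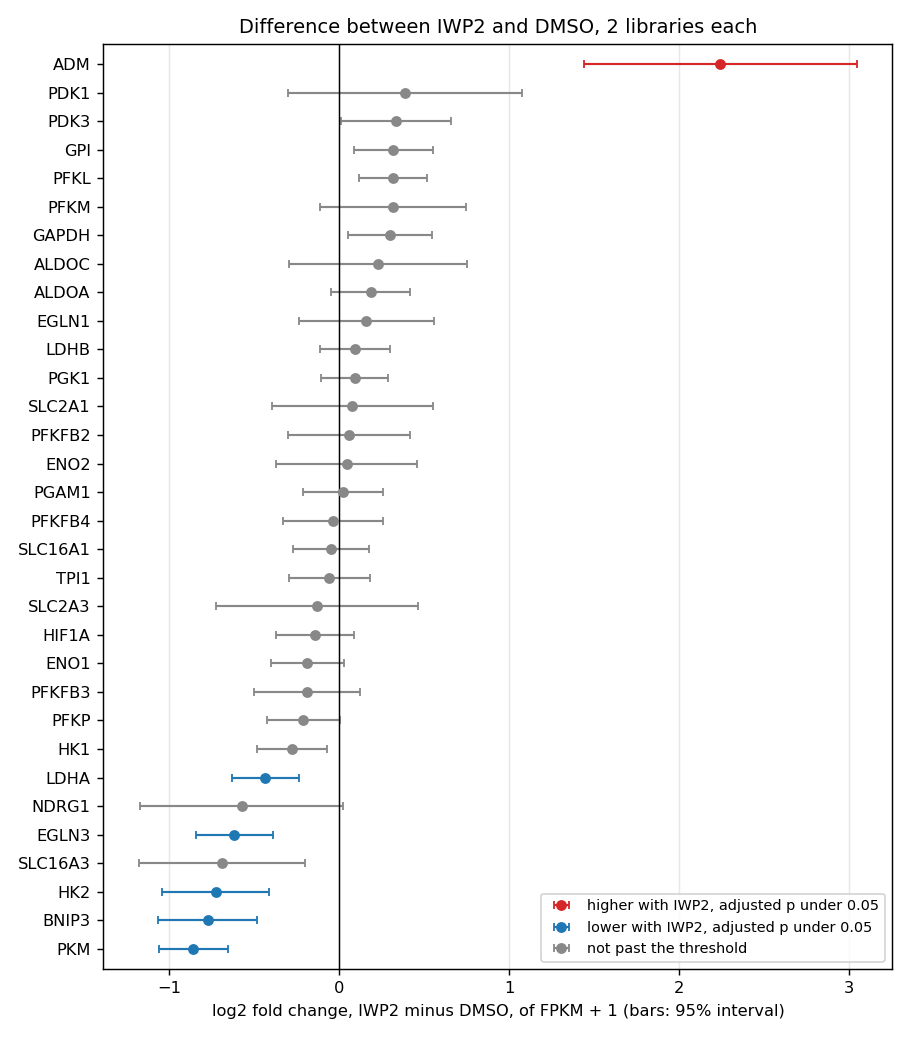
Log2 fold change of FPKM + 1 (IWP2 minus DMSO, x axis) for the 32 tested genes in order of size, as points with 95% intervals from limma. ADM stands apart at 2.24, the 5 genes that fell lie between -0.86 and -0.43, and 26 genes in grey did not pass the threshold.

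The 6 genes that passed were ADM, PKM, BNIP3, HK2, EGLN3 and LDHA. With 2 libraries a group these calls were sensitive to single libraries. Leaving out IWP2 replicate 1 removed all of them, and leaving out IWP2 replicate 2 removed all but that of PKM. Leaving out DMSO replicate 1 removed that of LDHA. Leaving out DMSO replicate 2 removed those of HK2 and LDHA, while SLC16A3 passed. None passed either when all 28917 genes with a value above 0 were tested. There 12 members and 5731 of all genes had an unadjusted p under 0.05 (limma). All 6 kept their direction in each of these fits, which was fixed in advance because their groups did not overlap. An exact permutation test of 2 against 2 libraries cannot go below 0.333, so no single gene was tested that way.

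HIF acts through a short core motif, and IWP2 acts upstream of the TCF/LEF factors. The promoters of the members with the largest changes are therefore shown. They are the RefSeq windows on GRCh38.p14 from 250 bases before to 50 bases after the annotated start, 5′ to 3′ on the gene's strand. Capitals mark each match to the HIF core, taken as ACGTG or as GCGTG on either strand, or to the TCF/LEF core, taken as CTTTGA or as CTTTGT on either strand. The window of ADM lies on chr11:10304823-10305122 (+), PKM on chr15:72231141-72231440 (-), BNIP3 on chr10:131981874-131982173 (-), and the starts of HK2 on chr2:74833877-74834176 (+) and chr2:74834920-74835219 (+).
ADM: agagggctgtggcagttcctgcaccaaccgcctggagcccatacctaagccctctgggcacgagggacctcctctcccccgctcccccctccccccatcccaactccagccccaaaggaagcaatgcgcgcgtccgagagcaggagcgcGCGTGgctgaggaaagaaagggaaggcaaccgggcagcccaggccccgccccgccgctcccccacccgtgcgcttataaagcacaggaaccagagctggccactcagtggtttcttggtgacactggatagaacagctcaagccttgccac
PKM: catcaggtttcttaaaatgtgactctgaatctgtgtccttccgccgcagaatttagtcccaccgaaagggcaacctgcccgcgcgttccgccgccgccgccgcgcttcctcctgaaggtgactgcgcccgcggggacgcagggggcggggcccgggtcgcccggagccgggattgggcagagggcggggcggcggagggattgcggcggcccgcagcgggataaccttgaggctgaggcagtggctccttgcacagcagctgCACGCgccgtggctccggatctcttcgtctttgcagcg
BNIP3: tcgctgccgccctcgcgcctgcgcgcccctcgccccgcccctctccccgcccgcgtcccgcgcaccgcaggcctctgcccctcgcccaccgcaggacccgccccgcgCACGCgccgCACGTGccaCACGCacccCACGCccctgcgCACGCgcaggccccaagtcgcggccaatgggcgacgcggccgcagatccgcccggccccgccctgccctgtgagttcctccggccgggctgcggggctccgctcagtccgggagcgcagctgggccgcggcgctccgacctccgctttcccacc
HK2, upstream start: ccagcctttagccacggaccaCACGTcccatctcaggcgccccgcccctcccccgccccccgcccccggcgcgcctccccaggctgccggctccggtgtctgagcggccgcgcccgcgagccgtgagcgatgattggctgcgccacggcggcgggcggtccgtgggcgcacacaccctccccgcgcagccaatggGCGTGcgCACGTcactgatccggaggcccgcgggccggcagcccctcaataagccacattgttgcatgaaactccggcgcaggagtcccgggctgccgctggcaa
HK2, downstream start: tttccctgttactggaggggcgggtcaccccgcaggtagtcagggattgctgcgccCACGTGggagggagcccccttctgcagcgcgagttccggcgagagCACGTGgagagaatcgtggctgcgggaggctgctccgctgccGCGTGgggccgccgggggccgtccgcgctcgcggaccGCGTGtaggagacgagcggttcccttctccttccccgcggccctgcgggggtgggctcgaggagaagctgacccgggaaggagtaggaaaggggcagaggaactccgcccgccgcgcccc

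These windows differed widely in the number of HIF core matches. ADM, the gene that rose, held 1 match, and PKM held 1, just past its start. BNIP3 held 6 matches within a short stretch before its start, and HK2 held 3 at the upstream and 6 at the downstream start. In BNIP3 and at the downstream start of HK2 some of these matches formed the palindrome CACGTG, the E-box, which holds the HIF core on both strands. Matches were counted by strand, so that 1 palindrome counted as 2 matches, also in the first LDHA window. EGLN3 had no match in its window, and the first of the 2 LDHA windows held 6. Windows were found for 29 of the 33 genes, 56 in all, and SLC2A3, PFKFB2, SLC16A1 and NDRG1 had no entry. At least 1 HIF core was present in 37 of the 56 windows (66.1%), beside 48.4% of all 35116 promoter windows. Counted by gene, 27 of the 29 had it at 1 start or more. This count cannot be set beside the share of windows, since a gene with several starts has more windows to match. The TCF/LEF core was present in 8 of the 56 windows (14.3%), beside 26.2% of all windows. None of the windows printed here held it, while the second window of LDHA, which is not printed, held 1 match. Both are descriptions of letters, and genes with several annotated starts count more than once. The windows were not matched for base composition, and whether matches bear on the values was not tested.

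The highest levels were those of GAPDH, ENO1 and PKM, enzymes of the lower steps, and the members spanned from CA9 at under 1 FPKM to GAPDH at up to 2875 FPKM, as the plot of levels by library shows. Together the 17 enzymes summed to 8404 and 8045 FPKM with DMSO and to 8022 and 8183 FPKM with IWP2, which overlap. Without PKM, the sums were 7146 and 6788 FPKM with DMSO and 7314 and 7505 FPKM with IWP2. PKM had the lowest log2 fold change of the tested members, so leaving it out favours a higher sum with IWP2. GAPDH weighs most in these sums and was not called. It was at 2418 and 2193 FPKM with DMSO and at 2794 and 2875 FPKM with IWP2. All 33 members made up 1.42% to 1.48% of the FPKM of a library.

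**Figure D2:**
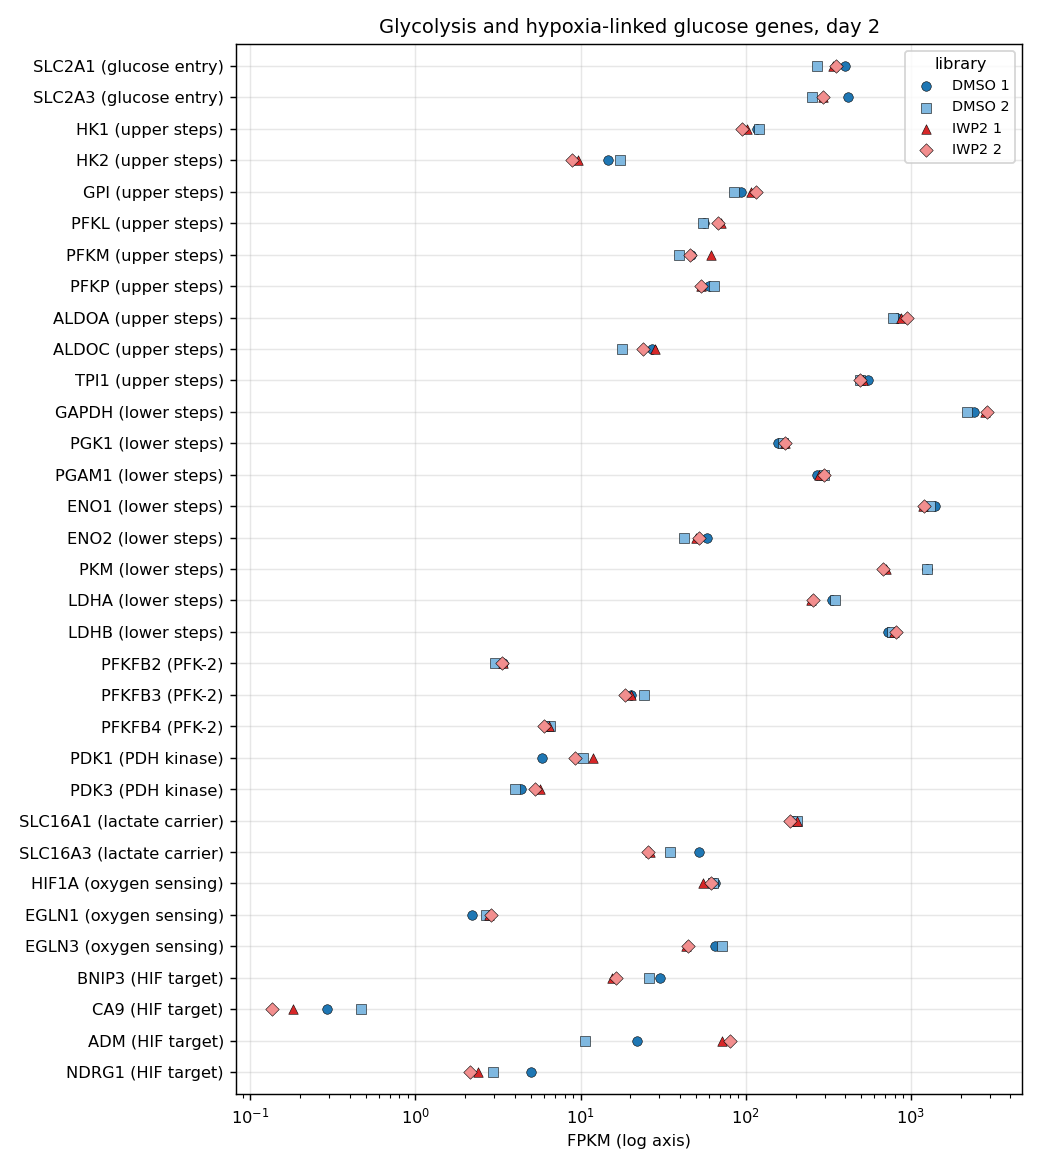
FPKM of the 33 genes (log x axis) in the 2 DMSO libraries (blue) and the 2 IWP2 libraries (red), 1 point a library, with the role of each gene beside its name. GAPDH is highest at 2193 to 2875 FPKM and CA9 lowest, and ADM is the gene whose red points lie farthest from the blue ones.

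Neither of the glucose transporters among the members passed the test. SLC2A1 (GLUT1), the basal glucose transporter and a HIF target, was at 397 and 271 FPKM with DMSO and at 339 and 354 FPKM with IWP2. SLC2A3 (GLUT3), a high-affinity transporter, was at 415 and 252 FPKM with DMSO and at 294 and 295 FPKM with IWP2. In both genes the DMSO libraries lay on either side of the treated ones, with log2 fold changes of 0.08 (95% interval -0.40 to 0.55) and -0.13 (-0.73 to 0.46). Differences inside these intervals are compatible with these libraries, and the intervals are not adjusted for the number of genes tested. SLC2A14 is a near-identical copy of SLC2A3, at 2.55 to 4.61 FPKM, and reads of the pair may have been split between them.

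The first step of glycolysis was the one upper step with a call. HK2, a hexokinase that binds mitochondria and a HIF target, lies on chr2:74833981-74893359 (GRCh38). It was at 14.7 and 17.3 FPKM with DMSO and at 9.63 and 8.87 FPKM with IWP2. Both treated libraries were below both controls, by 1.73-fold between means of 16.0 ± 1.85 and 9.25 ± 0.54 FPKM (SD, n = 2). The log2 fold change was -0.73 ± 0.12 (SE), with an adjusted p of 0.0195 (limma). AC019069.1 overlaps HK2 on the opposite strand at up to 3.90 FPKM, and strand was not stated for the counting. HK1, the constitutive hexokinase and the more abundant of the pair, was at 118 and 119.9 FPKM with DMSO and at 101 and 94.2 FPKM with IWP2. These did not overlap, but the log2 fold change of -0.28 did not pass the threshold (adjusted p = 0.0834).

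The other upper enzymes did not pass the threshold. GPI, which turns glucose-6-phosphate into fructose-6-phosphate, was at 93.0 and 84.4 FPKM with DMSO and at 107 and 115 FPKM with IWP2 (log2 fold change 0.32, adjusted p = 0.0810). PFKL, the liver form of the committing enzyme phosphofructokinase, was at 55.8 and 55.3 FPKM with DMSO and at 71.0 and 67.7 FPKM with IWP2 (0.32, adjusted p = 0.0582). In both genes the treated libraries were above both controls. Both were called with upper-quartile scaling (adjusted p = 0.0386 and 0.0290) and with quantile normalization (0.0474 and 0.0459). PFKM, the muscle form, overlapped between the groups at 39.2 to 61.9 FPKM, and PFKP, the platelet form, had a log2 fold change of -0.21, from 59.7 and 64.5 FPKM to 53.2 and 53.7 FPKM. ALDOA, the main aldolase, ranged from 773 to 947 FPKM, ALDOC, its brain form, from 17.9 to 28.05 FPKM, and TPI1, which interconverts the triose phosphates, from 490.0 to 552 FPKM. Of these 3, the groups overlapped in ALDOC and TPI1 and not in ALDOA (log2 fold change 0.18).

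Among the lower steps PKM and LDHA fell, and these are the last enzymes on the way to lactate. PKM, the pyruvate kinase that makes pyruvate and ATP, lies on chr15:72199029-72231822. It was at 1258 and 1256 FPKM with DMSO and at 708 and 678 FPKM with IWP2. The controls were nearly equal and both treated libraries lay far below them, by 1.81-fold between means of 1257 ± 1.02 and 693 ± 21.0 FPKM (SD, n = 2). The log2 fold change was -0.86 ± 0.08 (SE; adjusted p = 0.00371, limma), and it was the lowest of the 32. A table of genes does not separate the M1 and M2 splice forms of PKM.

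LDHA, the lactate dehydrogenase subunit that favours lactate formation and a HIF target, lies on chr11:18394388-18408425. It was at 333 and 349 FPKM with DMSO and at 248.5 and 256 FPKM with IWP2. Both treated libraries were below both controls, by 1.35-fold between means of 341 ± 11.4 and 252 ± 4.97 FPKM (SD, n = 2). The log2 fold change was -0.43 ± 0.08 (SE) with an adjusted p of 0.0224 (limma), and this call was lost without the trend (adjusted p = 0.0600) and without any 1 of the 4 libraries (0.0697 to 0.149). LDHB, the subunit that favours the use of lactate, was at 731 and 768 FPKM with DMSO and at 785 and 813 FPKM with IWP2 (log2 fold change 0.09, not called).

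The remaining lower enzymes did not pass the threshold. GAPDH, which makes NADH and is often used as a reference gene, was at 2418 and 2193 FPKM with DMSO and at 2794 and 2875 FPKM with IWP2. The treated libraries were higher, with a log2 fold change of 0.30 (adjusted p = 0.111), which passed with upper-quartile scaling (0.0466). ENO1, the main enolase, was at 1391 and 1307 FPKM with DMSO and at 1177 and 1191 FPKM with IWP2 (-0.19, adjusted p = 0.218), and passed with quantile normalization (0.0394). PGK1, which makes the first ATP of the lower steps, ranged from 157 to 173 FPKM, PGAM1, which moves the phosphate of phosphoglycerate, from 269.6 to 299 FPKM, and ENO2, the neuronal enolase, from 42.0 to 58.0 FPKM. In PGAM1 and ENO2 the groups overlapped. Rows of processed pseudogenes summed to at most 1.11% of the parent in these enzymes.

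Shares of isoenzymes within a step differed between the groups in several pairs, as the bars of isoenzyme shares show. LDHA made up 31.3% and 31.3% of LDHA and LDHB together with DMSO and 24.04% and 23.9% with IWP2, a difference of -7.30 percentage points. The sum of LDHA and LDHB overlapped between the groups at 1034 to 1117 FPKM. The share of PFKP among the phosphofructokinases was 36.8% and 40.6% with DMSO and 28.6% and 32.1% with IWP2, while that of PFKL was 34.4% and 34.8% with DMSO and 38.2% and 40.4% with IWP2. HK2 held 11.1% and 12.6% of HK1 and HK2 with DMSO and 8.69% and 8.61% with IWP2. In each of these 4 shares the treated libraries lay on one side of both controls. So they did in the shares of the glucose transporters, enolases, lactate carriers, PFKFB3 and PFKFB4, while those of PFKM, PFKFB2, ALDOC and PDK1 overlapped. Such separation was common, since the levels of 59.8% of all genes did not overlap between the groups. PFKM held 28.7% and 24.6% of the phosphofructokinases with DMSO and 33.2% and 27.5% with IWP2. Shares were set side by side per gene length and were given without a test.

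**Figure D3:**
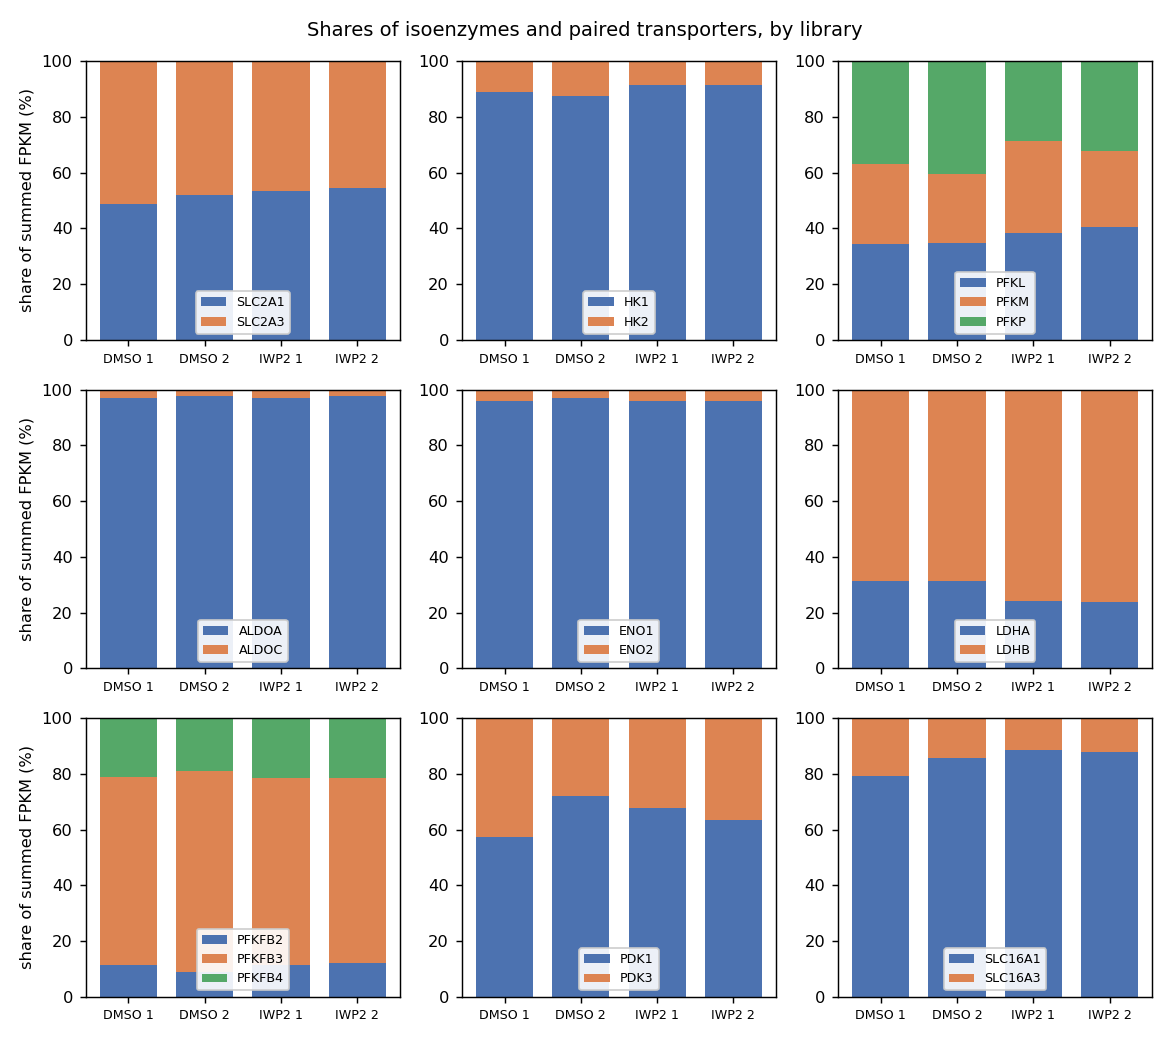
Share of summed FPKM (%, y axis from 0 to 100) of each isoenzyme or transporter within its step, 1 stacked bar for each of the 4 libraries. LDHA holds 31.3% in the DMSO 1 library and 23.9% in the IWP2 2 library, while the bars of ALDOA and ALDOC look alike in all 4.

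None of the 5 regulators of flux into and out of glycolysis passed the threshold (limma), where 15.2% of all genes did, and so few genes say little either way. Of these only PDK3 had an unadjusted p under 0.05. PFKFB3, which raises fructose-2,6-bisphosphate and so phosphofructokinase activity, was the main form of its family at 18.5 to 24.3 FPKM. PFKFB4 stayed between 6.01 and 6.48 FPKM and PFKFB2 between 3.02 and 3.40 FPKM. PDK1, a kinase that shuts pyruvate dehydrogenase and a HIF target, was at 5.80 and 10.3 FPKM with DMSO and at 11.9 and 9.21 FPKM with IWP2. Its DMSO libraries differed by 1.78-fold and the groups overlapped. PDK3, of the same family, was at 4.34 and 3.99 FPKM with DMSO and at 5.68 and 5.33 FPKM with IWP2, higher in both treated libraries (log2 fold change 0.33, adjusted p = 0.156).

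Of the lactate carriers, SLC16A1 (MCT1), which carries lactate both ways, ranged from 184 to 205 FPKM with overlapping groups. SLC16A3 (MCT4), a low-affinity exporter of lactate and a HIF target, was at 51.8 and 34.7 FPKM with DMSO and at 26.2 and 25.7 FPKM with IWP2. Both treated libraries were lower, with a log2 fold change of -0.69 ± 0.19 (SE), but the adjusted p of 0.0760 missed the threshold. It passed when FPKM were rescaled to TPM (0.0461) or without DMSO replicate 2 (0.0161). CSNK1D overlaps SLC16A3 on the opposite strand at 65.0 to 66.4 FPKM.

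In oxygen sensing, EGLN3 fell and the other genes did not pass the threshold. EGLN3 (PHD3), a prolyl hydroxylase that is itself induced by HIF, spans chr14:33924231-34462774 in the table. It was at 64.7 and 71.6 FPKM with DMSO and at 43.6 and 44.4 FPKM with IWP2. Both treated libraries were lower, by 1.55-fold between means of 68.1 ± 4.89 and 44.0 ± 0.53 FPKM (SD, n = 2), with a log2 fold change of -0.62 ± 0.09 (SE; adjusted p = 0.0124, limma). SPTSSA overlaps this span on the same strand, at 23.03 and 21.2 FPKM with DMSO and at 15.4 and 17.1 FPKM with IWP2, and reads of the pair may have been shared. EGLN1 (PHD2), the main hydroxylase in normal oxygen, ranged from 2.21 to 2.86 FPKM. HIF1A, the oxygen-regulated subunit, was at 65.1 and 63.1 FPKM with DMSO and at 55.1 and 61.1 FPKM with IWP2 (log2 fold change -0.14, 95% interval -0.37 to 0.09). HIF1A is regulated mainly as a protein, which was not measured here.

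The further HIF targets went both ways. ADM, adrenomedullin, a secreted peptide that acts on vessels, lies on chr11:10304680-10307397. It was at 21.8 and 10.6 FPKM with DMSO and at 72.2 and 79.7 FPKM with IWP2. Both treated libraries were far above both controls, by 4.69-fold between means of 16.2 ± 7.96 and 76.0 ± 5.35 FPKM (SD, n = 2). The log2 fold change was 2.24 ± 0.32 (SE; adjusted p = 0.0115, limma), and the controls themselves differed by 2.06-fold. It was 1.75 without DMSO replicate 2 and 2.73 without DMSO replicate 1.

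BNIP3, a mitochondrial protein of mitophagy and cell death, lies on chr10:131966455-131982013. It was at 30.4 and 25.8 FPKM with DMSO and at 15.5 and 16.4 FPKM with IWP2. Both treated libraries were lower, by 1.76-fold between means of 28.1 ± 3.26 and 16.0 ± 0.63 FPKM (SD, n = 2), with a log2 fold change of -0.77 ± 0.11 (SE; adjusted p = 0.0130, limma). Its value is uncertain, since 38 rows of BNIP3 pseudogenes summed to 10.7 and 7.36 FPKM with DMSO and to 9.30 and 11.4 FPKM with IWP2, up to 69.4% of the gene's own value. NDRG1, a stress-induced gene of differentiation, was at 4.98 and 2.94 FPKM with DMSO and at 2.39 and 2.13 FPKM with IWP2. It was lower in both treated libraries but did not pass (log2 fold change -0.57 ± 0.24, SE; adjusted p = 0.179).

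The DMSO libraries differed from each other in several of these genes. By more than 1.3-fold of FPKM + 1 they differed in 8 of the 32 genes, beside 16.7% of all genes, and the IWP2 libraries in 1 of 32, PFKM (3.12%), beside 11.1%. In 7 of the 8, SLC2A1, SLC2A3, ALDOC, ENO2, SLC16A3, ADM and NDRG1, the DMSO 1 library was the higher one, and PDK1 was higher in DMSO 2. The median absolute log2 difference between the DMSO libraries was 0.143 for the 32 genes and 0.154 over all genes. Some other hypoxia response genes also differed between the controls, in both directions. In DMSO 1 and DMSO 2, DDIT4 was at 40.6 and 17.9 FPKM, STC2 at 25.98 and 8.35 FPKM and AK4 at 4.77 and 7.13 FPKM. These were picked after their values were seen, and what set the controls apart was not tested.

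Other genes of the HIF response were mixed in direction, with 3 higher and 5 lower of the 28 tested out of 30 (28.6% called, beside 15.2% of all genes) and a median log2 fold change of -0.04. EPAS1, the HIF2 alpha subunit, rose from 0.997 and 0.970 FPKM to 5.48 and 4.42 FPKM. CA12, a carbonic anhydrase of the cell surface, fell from 58.8 and 63.8 FPKM to 16.7 and 14.6 FPKM (log2 fold change -1.91, adjusted p = 0.000852). FAM162A, a mitochondrial protein, rose (1.04), while MXI1, a MYC antagonist, fell (-0.86). The lysine and proline hydroxylases of collagen PLOD2 (-0.65) and P4HA2 (-0.85) and the repressor BHLHE40 (-0.71) also fell. VEGFA, the vascular growth factor often read as a HIF target, was at 15.7 and 11.5 FPKM with DMSO and at 11.4 and 12.2 FPKM with IWP2 (adjusted p = 0.532). Without IWP2 replicate 1 or IWP2 replicate 2 only 1 gene of this list passed.

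**Figure D4:**
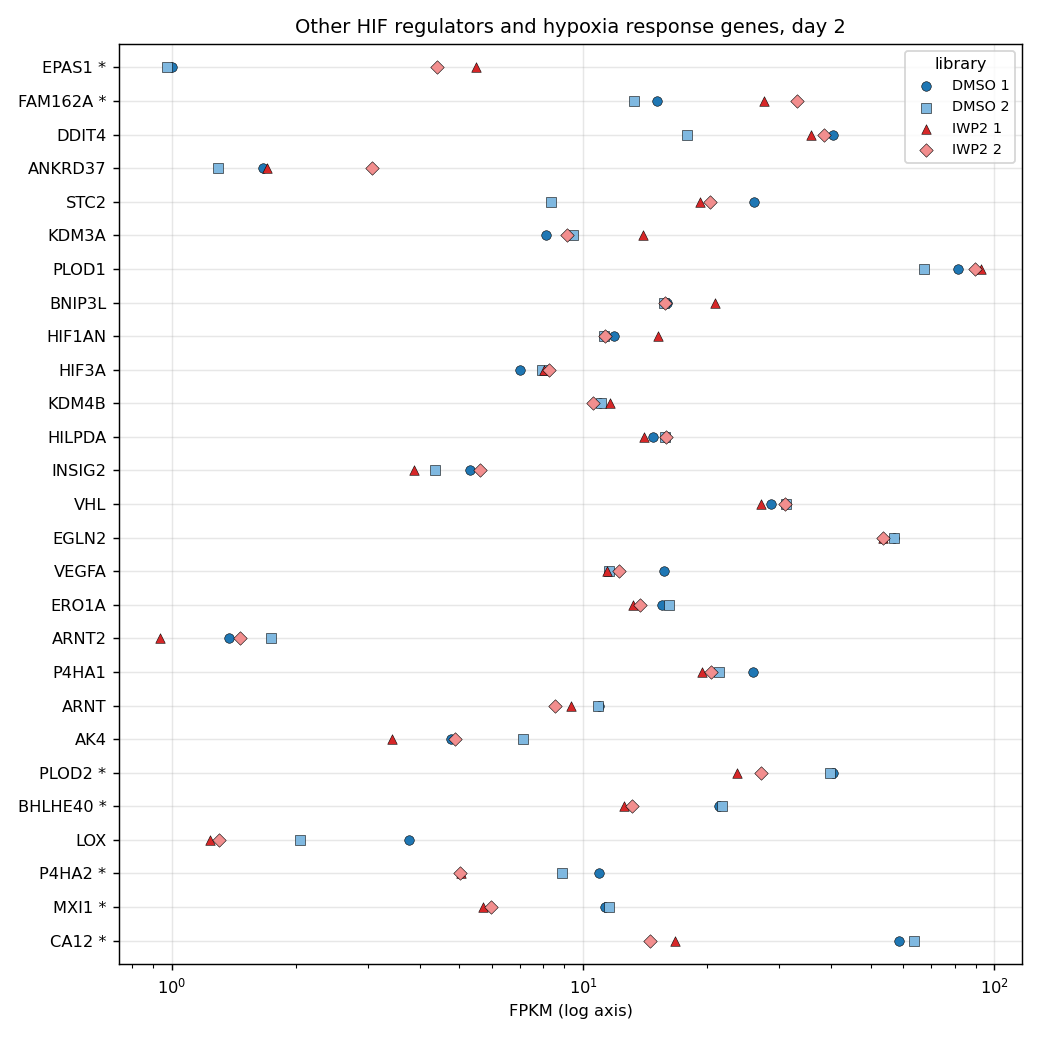
FPKM (log x axis) of tested genes of the wider HIF response, all but 1, in order of their log2 fold change, with 1 point a library (DMSO blue, IWP2 red) and an asterisk beside genes past the threshold. The red points of EPAS1 and FAM162A lie to the right of the blue ones, and those of CA12 to the left.

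The pathways that branch from glycolysis were called in both directions too. Of the other glucose transporters and glycolytic isoenzymes, 13 of 29 were expressed enough to test, with a median log2 fold change of -0.16. Of these SLC2A12, a glucose transporter, rose from 0.779 and 0.280 FPKM to 3.61 and 3.56 FPKM, and PCK2, the mitochondrial enzyme that makes phosphoenolpyruvate, fell (-0.63). These were 15.4% of the genes tested in the list, beside 15.2% of all genes, and the list had no call by limma without IWP2 replicate 1, without IWP2 replicate 2 or without a filter. In the pentose phosphate and glycogen list 3 rose and 3 fell of 17 tested (35.3%, beside 15.2% of all genes), with a median of 0.05. PGM1, which joins glycogen to glucose-6-phosphate, fell from 82.1 and 58.2 FPKM to 17.0 and 17.5 FPKM (log2 fold change -1.94, adjusted p = 0.00336). H6PD, the glucose-6-phosphate dehydrogenase of the endoplasmic reticulum, fell as well (-0.83), while PGM2 rose (0.67). TKT, the transketolase of the pentose phosphate pathway (0.66), and UGP2, which makes UDP-glucose (0.60), rose. Without IWP2 replicate 1 the pentose phosphate and glycogen list had 1 call, without IWP2 replicate 2 it had 2, and without DMSO replicate 1 or DMSO replicate 2 it had 3.

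Pyruvate entry into mitochondria, 12 genes of the carrier, the dehydrogenase complex and its regulators, had no call by limma, where 15.2% of all genes did. Their median log2 fold change was -0.04, and 3 of the 12 had an unadjusted p under 0.05, beside 4245 of all 14022 genes. None of the 13 other settings gave a call there. Of 7 lactate and proton handling genes tested, CA14, a membrane carbonic anhydrase (0.82), and SLC4A7, a bicarbonate carrier (0.48), rose and CA2, a cytosolic carbonic anhydrase, fell from 50.3 and 48.1 FPKM to 25.4 and 26.8 FPKM (-0.89). These 3 calls (42.9%, beside 15.2% of all genes) became 0 without IWP2 replicate 1, 1 without IWP2 replicate 2 or without a filter, and 2 without DMSO replicate 1 or DMSO replicate 2. Of the 5 genes of the serine branch, PHGDH, its first enzyme, rose from 323 and 290.3 FPKM to 408 and 411 FPKM (0.42), and SHMT2, the mitochondrial serine hydroxymethyltransferase, fell (-0.46), which is 40.0% of the list. With any 1 library left out, 0 or 1 of the 5 passed.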

How the data were processed

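RNA of H1-derived cells was sequenced from 2 DMSO and 2 IWP2 libraries (TruSeq kit). Per the labels, BWA, Bowtie and RSEM were used by the authors, with no roles, versions or strand setting. The deposited table held FPKM per gene and library, with no counts, and its header names no unit. The labels name hg19, but 97.4% of the 58102 gene identifiers found in GENCODE 29 had the same start and end there, so coordinates are given as GRCh38. Neither absolute depth nor a counting interval or detection floor could be derived from FPKM, and the 95% intervals given are those of the limma fit. Columns of the DMSO libraries were mapped to the group only, and the numbers 1 and 2 follow the header. The methods speak of independent experiments in general but do not say that these libraries came from separate cultures. The p-values rest on the spread between these libraries, which may be technical. As limma draws each gene's spread towards that of genes at like levels, SE, intervals and p-values rest partly on other genes.

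Values were tested as log2(FPKM + 1) for genes with a mean of at least 1 FPKM by limma 3.58.1 in R 4.3.3 (lmFit, eBayes with trend, two-sided, Benjamini-Hochberg over all 14022 genes, threshold 0.05). A fold change on this scale understates that of low genes. The model was also run on simulated data with known changes and independent normal noise, which does not show that the calls hold in these libraries. All members were named, with full statistics for those past the threshold, and from other lists up to 4 genes past it with the largest log2 fold change, and further genes named were chosen after their values were seen. Members and lists were chosen with earlier results of these data known. A gene of the wider HIF list and one of the glycogen list enter the counts and are not reported here by name. Promoters came from RefSeq (GRCh38.p14). The alternatives were pseudocounts of 0.1 and 0.01, no filter, a mean of at least 5 FPKM, TPM, upper-quartile scaling, quantile normalization, no trend, a replicate block and leaving out each library.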

Additional observations from a re-analysis of the deposited data

How the results depend on the processing

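The 6 genes kept their direction under all 13 alternatives, and the call of each was lost under some of them. As their groups did not overlap, only TPM, upper-quartile scaling and quantile normalization could have turned a direction. Over all genes, 2129 were called, 381 without a filter and 318 to 1388 with 1 library left out. For the members, 6 were called, 0 without a filter and 0 to 5 with 1 library left out, and their median log2 fold change of -0.01 became -0.044 with a mean of at least 5 FPKM, 0.076 with upper-quartile scaling, 0.038 with quantile normalization, and -0.059 to 0.023 with 1 library left out. With a replicate block 1927 genes and 6 members were called, and the serine branch had 1 call. Across genes, the difference between replicates 1 and 2 with DMSO correlated only weakly with that with IWP2 (r = 0.152). Nothing but the number links same-numbered libraries.

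Without a filter the calls were 0 for other isoenzymes, 2 for HIF genes, 1 for pentose phosphate and glycogen, 1 for lactate and proton handling, 0 for the serine branch, 3 for Wnt targets, 1 for endoderm, 0 for amnion and trophoblast, 0 for endothelial and blood and 1 for stromal markers. More genes were then tested (28917). At 5 FPKM or more, endoderm, amnion and stromal markers had 1 call each and endothelial and blood markers 0. The serine branch had 1 call with upper-quartile scaling and 0 without the trend, where stromal markers had 1. With 1 library left out, calls ranged from 0 to 3 for other isoenzymes, 1 to 8 for HIF genes, 1 to 3 for pentose phosphate and glycogen, 0 to 2 for lactate and proton handling, 0 to 1 for the serine branch, 3 to 5 for Wnt targets, 1 to 4 for pluripotency, 1 to 3 for endoderm and for amnion and trophoblast, 0 to 1 for endothelial and blood and 0 to 2 for stromal markers. The lone library of a group was assumed to vary like the others.

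Among members that were not called, log2 fold changes turned sign for PGAM1 in TPM (-0.0057), for TPI1 (0.033), PFKFB4 (0.040) and SLC16A1 (0.039) with upper-quartile scaling, and for TPI1 (0.0089) and PFKFB4 (0.0095) with quantile normalization. With 1 library left out they ranged from -0.20 to 0.35 for SLC2A1, -0.49 to 0.23 for SLC2A3, -0.056 to 0.51 for ALDOC, -0.14 to 0.026 for TPI1, -0.053 to 0.098 for PGAM1, -0.19 to 0.27 for ENO2, -0.0076 to 0.13 for PFKFB2, -0.081 to 0.0056 for PFKFB4 and -0.13 to 0.023 for SLC16A1. Pseudocounts of 0.1 and 0.01 left 6 members called. The causes of these changes were not tested.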
